A study of Homo sapiens with 6 samples.

Results

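The transcripts of the mitochondrial genome were examined in cells labelled MG63, an established human osteosarcoma line, after knockdown of FUBP1. FUBP1 is a DNA- and RNA-binding protein that lies mainly in the nucleus. All genes that the table places on chromosome MT were taken: 37 of 58735 genes, of which 13 encode proteins, 2 encode rRNAs and 22 encode tRNAs. The 6 samples were 3 transfected with siRNA against FUBP1 (siFUBP1) and 3 transfected with the negative control (siMock). RNA was taken 48 h after transfection, both groups carry the same line label, and no other agent was given in the labels. Nothing in the labels says whether the samples of a group came from separate cultures, so p-values measure the spread between these samples, which may be technical. The sources used here do not name the FUBP1 siRNA that was sequenced. The mRNA was captured on poly-T beads from 1 µg of RNA, and reads were counted per gene.

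The mitochondrial genome is a small circle inside the organelle that encodes core subunits of respiratory complexes I, III and IV and of the ATP synthase, complex V, together with the rRNAs and tRNAs that translate them. Both strands are transcribed as long precursors, and the tRNAs that lie between most genes are cut out at their ends to release the mRNAs and rRNAs. Most of its mRNAs receive a short poly(A) tail, while the enzymes that copy, cut, tail, protect and translate these RNAs are all encoded in the nucleus. RNA captured by its tail is therefore measured together with the state of that tail, and the level of a transcript and its tailing cannot be told apart in these libraries.

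FUBP1 had 3872, 4331 and 4282 counts in the siMock samples and 749, 752 and 926 in the siFUBP1 samples, a log2 fold change of -2.44 (edgeR adjusted p = 1.89e-17). Total counts were between 16309900 and 17484313 per sample, and 16116 genes passed edgeR's expression filter. Of 9 markers of osteoblasts and bone tumours, RUNX2 and COL1A1 passed that filter, while SPARC, SPP1, ALPL, SP7 and BGLAP had at most 22 counts in any sample and COL1A2 and IBSP had 0 in all. Of 12 markers of other cell types, 6 passed the filter. The keratin genes KRT8 and KRT18 were the highest of them, at a mean of 1986 and 704 CPM in siMock and 991 and 445 CPM in siFUBP1, and both fell. Most osteoblast markers thus go against the label, so the identity of the sequenced cells is in doubt, and both groups are described as labelled. The part of these differences in the mitochondrial results was not tested.

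Mitochondrial genes took a smaller share of the counts after FUBP1 knockdown. They held 5.75%, 5.60% and 6.59% of all counts in the siMock samples and 4.88%, 3.98% and 4.63% in the siFUBP1 samples. The groups did not overlap, and the means were 5.98% ± 0.536 and 4.50% ± 0.465 (SD, n = 3 each). The exact two-sided permutation test gave p = 0.1, the smallest value that 3 samples against 3 allow, and 0.143 after adjustment over the 30 sums, shares and ratios computed. The exact 95% binomial interval of each share spanned at most 0.0241 percentage points, which covers counting error only. In bulk RNA, fewer cells with many mitochondria and less mitochondrial RNA per cell cannot be told apart.

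**Figure D1:**
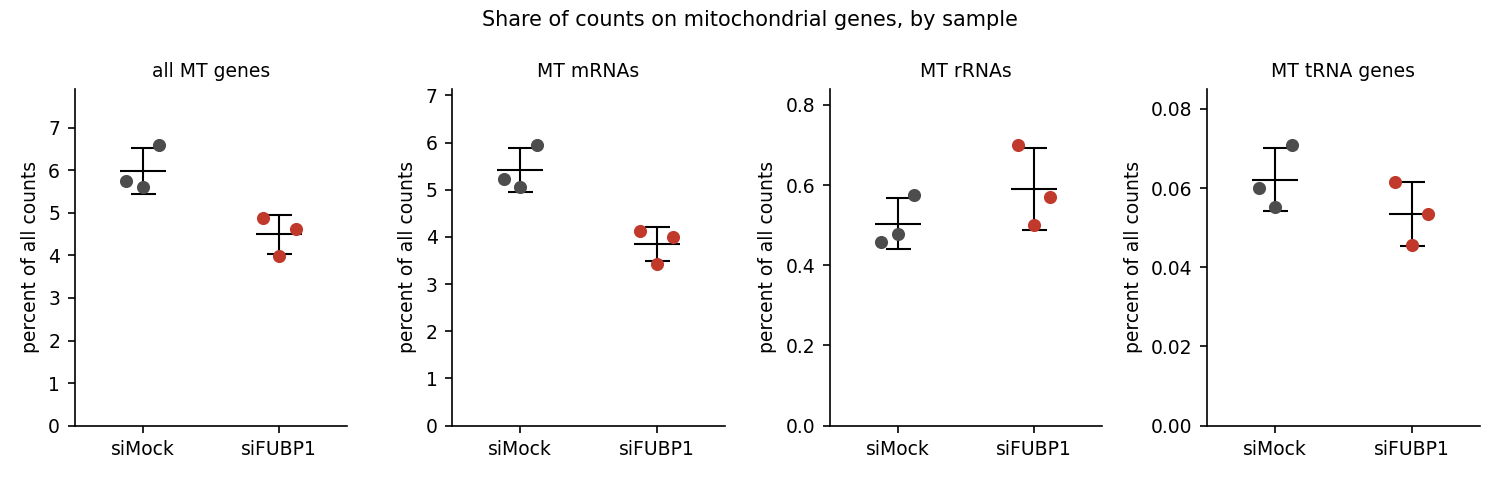
Share of all counts (vertical axis, percent, from 0) held by all mitochondrial (MT) genes, the 13 mRNAs, the 2 rRNAs and the 22 tRNA genes in each sample. Points are samples, and bars are the mean and SD of 3. The siFUBP1 points lay below the siMock points for all MT genes and the mRNAs and overlapped them for the rRNAs and the tRNA genes.

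The mRNAs carried the difference. Their share was 5.41% ± 0.468 in siMock and 3.85% ± 0.367 in siFUBP1 (SD, n = 3), with no overlap. The rRNA share was 0.504% ± 0.0635 in siMock and 0.590% ± 0.102 in siFUBP1, and the groups overlapped (exact permutation p = 0.3). The tRNA genes held 0.0621% ± 0.00797 and 0.0535% ± 0.00806, also with overlap (exact permutation p = 0.3). Within the mitochondrial counts alone, mRNAs made up 90.5% ± 0.416 in siMock and 85.7% ± 1.16 in siFUBP1. The rRNAs made up 8.42% ± 0.413 and 13.1% ± 1.10, and neither measure overlapped between groups (exact permutation p = 0.1 each).

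Gene by gene, edgeR's quasi-likelihood test called 16 of the 25 mitochondrial genes that passed the filter lower and 0 higher at an adjusted p below 0.05. Of all 16116 genes tested, 30.1% were called lower and 30.1% higher. At an unadjusted p below 0.05 the count of higher genes was also 0 by edgeR. By DESeq2, which called 28.2% of all genes higher and 28.6% lower, it was 1, and 0 after adjustment. The 13 mRNAs all passed the filter and 12 were called lower, 92.3% of them, with a median log2 fold change of -0.54 beside 0.002 over all genes tested. None of the 13 had a log2 fold change below -1, where 9.13% of all genes tested were called. In 12 of the 13 all siFUBP1 samples were under the lowest siMock sample, which held for 31.7% of all genes tested. The sample siFUBP1 2 was the lowest in 13 of 13 mRNAs and siMock 3 the highest in 11, and leaving out either left the median at -0.45 and -0.53.

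**Figure D2:**
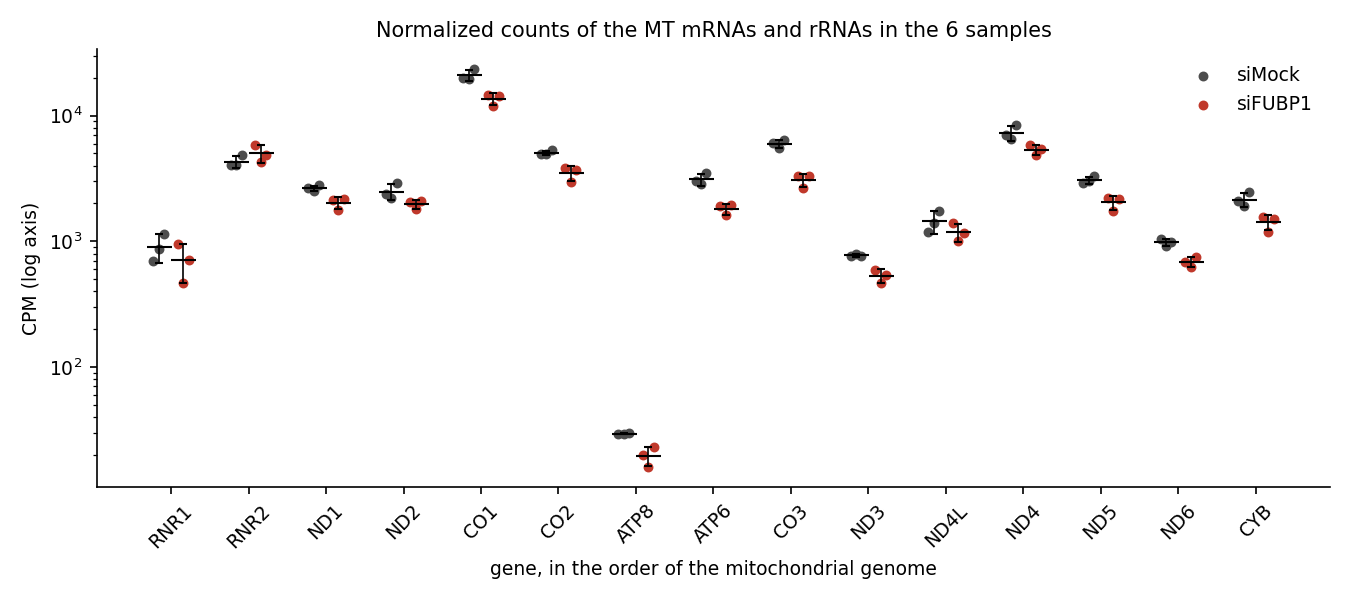
Normalized counts (CPM, log axis) of the mitochondrial rRNAs and mRNAs in the 6 samples, in genome order. Points are samples, and bars are the mean and SD of 3. The siFUBP1 points of 12 of the 13 mRNAs lay under all siMock points, while ND4L, RNR1 and RNR2 overlapped.

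Levels per length (CPM per kilobase of gene) spanned a wide range among the mRNAs. In siMock, CO1 was the highest at 13596 ± 1403 and ATP8 the lowest at 143 ± 2.43, a ratio of 95.2. ATP8 has 207 bases, of which ATP6 shares 46, while the selected fragments were 250 to 300 bp. Fragments on ATP8 can thus reach into ATP6, and the part of this in its low value and in the ratio was not tested. CO3 at 7651 ± 566 and CO2 at 7396 ± 300 CPM per kilobase came after CO1 and did not differ beyond their spread. ND4, ND4L and ATP6 followed between 5281 and 4576 CPM per kilobase, each overlapping its neighbour. ND1, RNR2, ND2 and ND3 lay between 2773 and 2239, again with each overlapping the next, and CYB, ND6 and ND5 between 1885 and 1688. RNR1, with 949 ± 239 CPM per kilobase, was below all of the mRNAs other than ATP8. In siFUBP1 the order at both ends was the same, with CO1 at 8839 ± 986 and ATP8 at 95.4 ± 17.2 CPM per kilobase. CO3, second in siMock, was in the fourth place at 3929 ± 481, where it overlapped ND4L above it and ND4 below it.

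The genes for subunits of complex IV, cytochrome c oxidase, included the mRNA that changed most. CO3 had 6017, 5546 and 6433 CPM in siMock and 3284, 2646 and 3312 CPM in siFUBP1. The siFUBP1 samples were all far under the lowest siMock sample, and the log2 fold change was -0.96 (SE 0.0987, edgeR adjusted p = 4.80e-09), which left 51.4% of the siMock level. CO1, the catalytic subunit and the most abundant mitochondrial mRNA, had 20009, 19444 and 23443 CPM in siMock and 14718, 11892 and 14277 CPM in siFUBP1. It fell by 0.62 on the log2 scale (edgeR adjusted p = 1.59e-05). CO2, which receives electrons from cytochrome c, had 4968, 4915 and 5294 CPM against 3846, 2944 and 3694 CPM. Its groups did not overlap either, and it fell by 0.53 (edgeR adjusted p = 4.01e-05).

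Both complex V genes, ATP6 and ATP8, lie on 1 transcript and share 46 bases in different reading frames. ATP6, a part of the proton channel, had 3010, 2834 and 3503 CPM in siMock and 1904, 1607 and 1939 CPM in siFUBP1. It showed the second largest fall among the mRNAs, a log2 fold change of -0.78 (SE 0.0963, edgeR adjusted p = 1.15e-07). ATP8 was counted at 29.1, 29.5 and 30.1 CPM in siMock and 19.9, 16.1 and 23.2 CPM in siFUBP1, a log2 fold change of -0.58 (edgeR adjusted p = 7.39e-05). Only 0.956 ± 0.0910 counts fell on ATP8 per 100 on ATP6 in siMock and 1.08 ± 0.102 in siFUBP1, and these overlapped (exact permutation p = 0.2). Reads in the shared stretch, printed here with the start codon of ATP6 in capitals because both genes can claim them, could be split or dropped in counting. The selected fragments, at 250 to 300 bp, are longer than the 207 bases of ATP8, so those on the rest of ATP8 can also reach ATP6. Both values are uncertain to that extent, that of ATP8 the more. The shared stretch lies at chrM:8527-8572 on the plus strand of GRCh38 (all sequences shown are from the GENCODE release 29 transcripts).
MT-ATP8 and MT-ATP6 overlap: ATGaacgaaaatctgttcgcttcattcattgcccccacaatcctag

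Complex I, NADH dehydrogenase, takes 7 of its subunits from this genome. Of their 7 mRNAs 6 were called lower, beside 30.1% of all genes tested. ND4 had 6983, 6497 and 8353 CPM in siMock and 5812, 4878 and 5440 CPM in siFUBP1, a log2 fold change of -0.44 (edgeR adjusted p = 5.88e-04). ND1 had 2639, 2533 and 2783 CPM against 2115, 1786 and 2190 CPM, a log2 fold change of -0.39 (edgeR adjusted p = 6.63e-04). Both sets of groups were apart. ND2 had 2389, 2195 and 2888 CPM in siMock and 2053, 1800 and 2076 CPM in siFUBP1, the smallest change among the mRNAs called (log2 fold change -0.33, edgeR adjusted p = 0.00452). Without siMock replicate 3 it was at -0.22 (edgeR adjusted p = 0.0592), past no threshold. ND3 fell by 0.54 and ND5 by 0.58 on the log2 scale (edgeR adjusted p = 6.85e-06 and 8.45e-06), from 775 ± 21.6 to 534 ± 64.3 CPM and from 3059 ± 213 to 2042 ± 256 CPM (SD, n = 3).

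ND4L and ND6 stood apart within complex I for different reasons. ND4L, which shares 7 bases and its transcript with ND4, had 1178, 1389 and 1756 CPM in siMock and 1388, 1004 and 1156 CPM in siFUBP1. The groups overlapped, and the log2 fold change of -0.28 (SE 0.15) did not pass the test (edgeR adjusted p = 0.126). Without siMock replicate 1 it was -0.42 (edgeR adjusted p = 0.0087), and without siFUBP1 replicate 1 it was -0.40 (edgeR adjusted p = 0.0211). Without siMock replicate 3 it was -0.12 (edgeR adjusted p = 0.384) and without siFUBP1 replicate 2 -0.17 (edgeR adjusted p = 0.370). ND6 is encoded on the opposite strand to the other 12 mRNAs. It had 1051, 924 and 987 CPM in siMock and 679, 628 and 746 CPM in siFUBP1, a log2 fold change of -0.53 (edgeR adjusted p = 6.41e-06), near the median of all 13. Its share of the mRNA counts, 1.77% ± 0.176 and 1.84% ± 0.132, overlapped between groups (exact permutation p = 0.7). Since no source used here gives the strand setting of the counting, reads of ND6 and of the antisense precursor across it cannot be told apart.

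Complex III has 1 gene on this genome, CYB, which encodes cytochrome b. It had 2087, 1912 and 2454 CPM in siMock and 1572, 1195 and 1501 CPM in siFUBP1. The groups did not overlap, and the log2 fold change was -0.60 (edgeR adjusted p = 2.86e-05).

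The composition of the mRNA pool differed between the groups as well as its size. Complex I mRNAs made up 33.1%, 33.3% and 33.6% of the mitochondrial mRNA counts in siMock and 36.9%, 37.8% and 36.7% in siFUBP1. Complex IV mRNAs were 57.2% ± 0.411 in siMock and 54.1% ± 0.468 in siFUBP1, and complex V mRNAs 5.61% ± 0.0981 and 4.93% ± 0.124 (SD, n = 3). These 3 shares did not overlap between groups, while that of CYB did, at 3.83% ± 0.144 and 3.81% ± 0.128. The ratio of complex IV to complex I counts was 1.73, 1.73 and 1.69 in siMock and 1.47, 1.42 and 1.48 in siFUBP1. That of CO3 to ND2 counts was 2.52, 2.53 and 2.23 against 1.60, 1.47 and 1.60. Both ratios were lower in every siFUBP1 sample (exact permutation p = 0.1 each, adjusted 0.143), and neither depends on how the libraries are scaled.

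**Figure D3:**
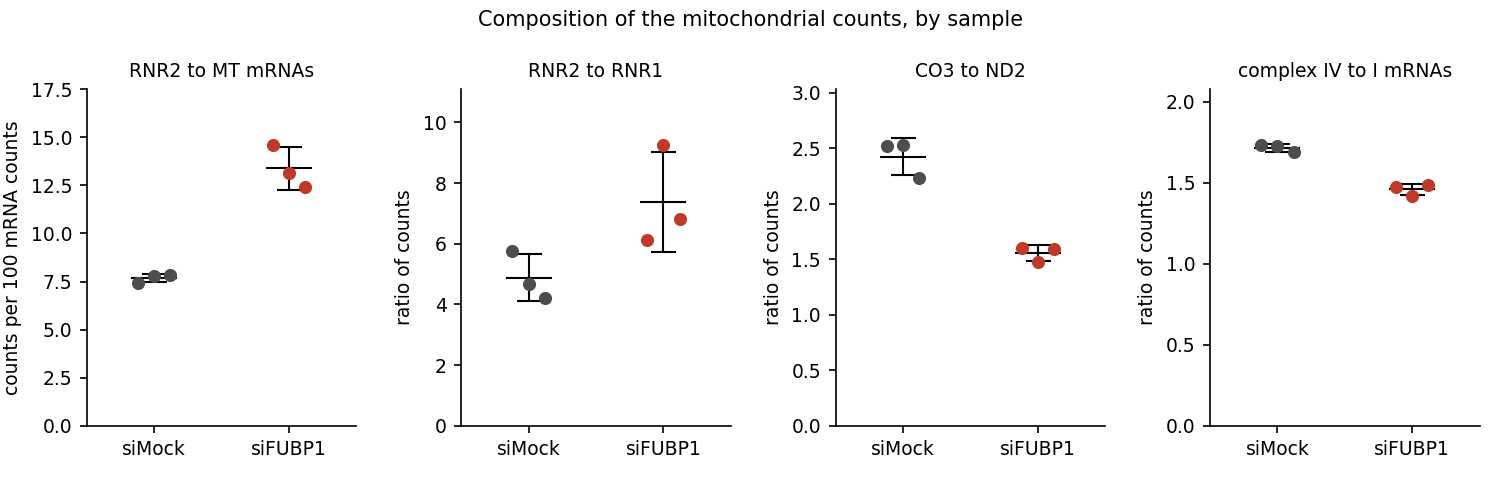
Ratios of counts within each sample (vertical axes from 0): RNR2 per 100 MT mRNA counts, RNR2 over RNR1, CO3 over ND2, and complex IV over complex I mRNAs. Points are samples, and bars are the mean and SD of 3. The siFUBP1 points lay above the siMock points for both RNR2 ratios and below them for the others.

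A second fit set each library's size to its sum over the 13 mRNAs, so that a change is relative to the mitochondrial mRNA pool, of which each mRNA is itself a part. On this scale the median of all genes tested was 0.59, and 58.9% of them were called higher and 8.13% lower, since the pool itself had fallen. CO3 was the only mitochondrial gene called lower on it (log2 fold change -0.38, edgeR adjusted p = 0.00139). ND4L and ND2 were called higher at 0.30 and 0.26 (edgeR adjusted p = 0.0212 and 0.0403), and the other 10 mRNAs lay between -0.19 and 0.20 without passing the test.

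**Figure D4:**
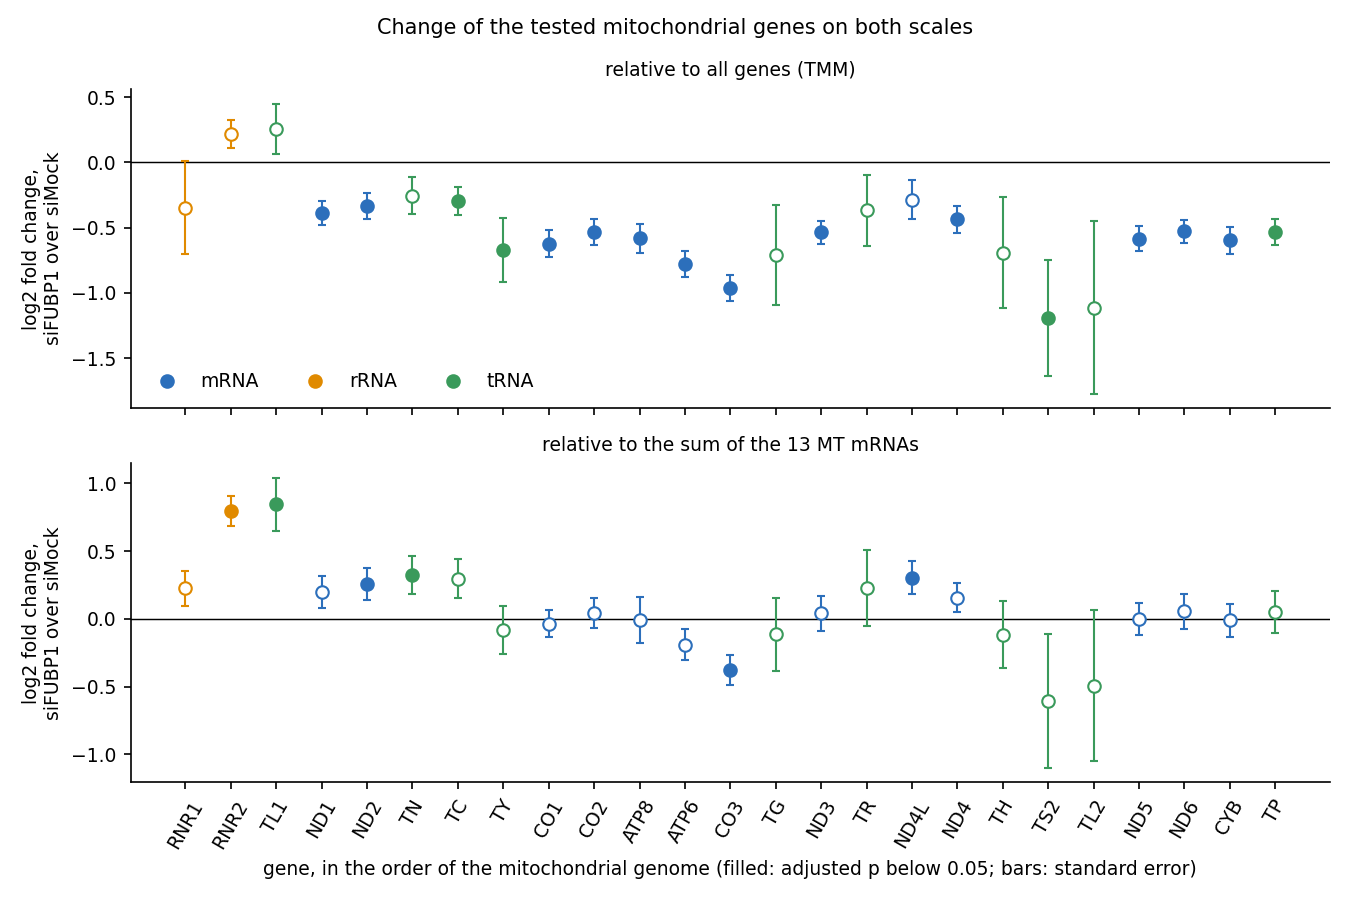
Log2 fold change (siFUBP1 over siMock) with its standard error for the 25 tested mitochondrial genes in genome order, relative to all genes (upper panel) and to the sum of the 13 mRNAs (lower panel). Filled points had an adjusted p below 0.05. All 13 mRNAs were below 0 in the upper panel. In the lower panel, where the sum is the reference, the signs of ND1, ND2, CO2, ND3, ND4L, ND4 and ND6 turned, and RNR2 and TL1 lay highest.

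The annotated ends of the mRNA genes were compared because a tail can also finish the stop codon on this genome. The gene ends after T or TA in 6 of the 13 mRNAs (ND1, ND2, CO3, ND3, ND4 and CYB), so that the tail must supply the missing A bases. A complete codon is encoded in the other 7. The last base of ATP6, 9207, is also the first of CO3, so an ATP6 mRNA cut before that base would need the tail as well. ATP6 was grouped by its encoded codon, and where its mRNA is cut was not tested. The annotated gene ends are shown with the encoded stop bases in capitals. They are those of the mRNA that fell most (CO3), of the called mRNA that fell least (ND2) and of the only gene ending on TA (ND1). ATP6, CO1 and ND6, with complete encoded codons, follow. Whether an mRNA runs on past its annotated end was not tested.
MT-CO3, chrM:9961-9990, plus strand: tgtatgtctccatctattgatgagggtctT
MT-ND2, chrM:5482-5511, plus strand: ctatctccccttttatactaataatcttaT
MT-ND1, chrM:4233-4262, plus strand: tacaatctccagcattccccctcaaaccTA
MT-ATP6, chrM:9178-9207, plus strand: gtaagcctctacctgcacgacaacacaTAA
MT-CO1, chrM:7416-7445, plus strand: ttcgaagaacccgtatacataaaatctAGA
MT-ND6, chrM:14149-14178, minus strand: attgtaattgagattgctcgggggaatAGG

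The kind of encoded stop did not separate the changes. The 6 mRNAs with an incomplete encoded codon had log2 fold changes between -0.96 and -0.33 with a median of -0.49. The 7 with a complete encoded one lay between -0.78 and -0.28 with a median of -0.58. The lowest of these 7 was ATP6, whose last base CO3 shares. CO3 and ND2 lie at both ends of the first range although each ends on a lone T. Nor did the change follow other features of the gene closely. Across the 13 mRNAs, which share libraries and are not independent, Spearman's rho of the log2 fold change was -0.198 with gene length, -0.283 with GC content and -0.121 with the siMock level per length. It was -0.196 with position over the 12 mRNAs of the same strand.

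Neither rRNA was called in either direction. RNR2, the rRNA of the large mitochondrial ribosomal subunit, had 4021, 4054 and 4859 CPM in siMock and 5865, 4280 and 4861 CPM in siFUBP1. The groups overlapped, and the log2 fold change of 0.21 (SE 0.107) did not pass the test (edgeR adjusted p = 0.088). Without siMock replicate 3 it was 0.30 (edgeR adjusted p = 0.027), without siFUBP1 replicate 2 it was 0.32 (edgeR adjusted p = 0.00579), without siFUBP1 replicate 1 it was 0.095 (edgeR adjusted p = 0.460), and after GC content and length were corrected for it was -0.021 (edgeR adjusted p = 0.866). RNR1, that of the small subunit, varied widely, with 699, 868 and 1150 CPM in siMock and 960, 463 and 714 CPM in siFUBP1. Its log2 fold change was -0.35 with a standard error of 0.356 (edgeR adjusted p = 0.461), so that the data set no direction for it. Of these 2 genes 0 were called by edgeR or DESeq2, and at an unadjusted p below 0.05 edgeR gave 0 and DESeq2 gave 1, RNR2, as higher.

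Set against the mRNAs of the same sample, RNR2 was higher in every siFUBP1 sample. It had 7.45, 7.79 and 7.84 counts per 100 mRNA counts in siMock and 14.6, 13.1 and 12.4 in siFUBP1 (exact permutation p = 0.1, adjusted 0.143). In the fit relative to the mRNA pool its log2 fold change was 0.80 (SE 0.111, edgeR adjusted p = 4.56e-12). On that scale the median of all genes tested was 0.59, and 58.9% of them were called higher. The log2 fold change of RNR1 on the same scale was 0.23 (edgeR adjusted p = 0.107). The ratio of RNR2 to RNR1 counts was 5.75, 4.67 and 4.23 in siMock and 6.11, 9.25 and 6.81 in siFUBP1, higher in every siFUBP1 sample (exact permutation p = 0.1, adjusted 0.143). Capture on poly-T beads leaves most rRNA behind, so these counts come from the part that was captured.

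Of the 22 tRNA genes, 12 did not pass the filter. They had between 0 and 16 counts in any sample, 250 in all, and they are TF, TV, TI, TQ, TM, TW, TA, TS1, TD, TK, TE and TT. The genes run from 59 to 75 bases, while cDNA fragments of 250 to 300 bp were selected, so a read on a tRNA gene can belong to a fragment that reaches into the neighbouring genes. Whether mature tRNAs or longer precursors were counted was not tested. The tRNA genes of the minus strand held 96.0% ± 1.03 of the tRNA counts in siMock and 95.5% ± 1.37 in siFUBP1, which overlapped (exact permutation p = 0.7). With the strand setting of the counting not given, reads of these genes and of the antisense precursor across them cannot be told apart.

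Only 5 tRNA genes had a mean of at least 100 counts, and their sequences are given because they carry nearly all tRNA counts, with the anticodon in capitals. TN, TC and TY lie next to each other on the minus strand between ND2 and CO1. TP, also on the minus strand, lies at the end of the coding part beside TT of the plus strand. TL1 is on the plus strand directly after RNR2.
MT-TN, tRNA for asparagine, chrM:5657-5729: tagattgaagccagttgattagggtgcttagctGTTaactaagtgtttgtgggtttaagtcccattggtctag
MT-TC, tRNA for cysteine, chrM:5761-5826: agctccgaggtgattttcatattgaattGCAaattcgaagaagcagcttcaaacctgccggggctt
MT-TY, tRNA for tyrosine, chrM:5826-5891: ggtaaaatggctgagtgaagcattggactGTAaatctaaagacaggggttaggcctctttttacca
MT-TP, tRNA for proline, chrM:15956-16023: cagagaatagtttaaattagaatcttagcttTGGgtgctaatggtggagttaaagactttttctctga
MT-TL1, tRNA for leucine, chrM:3230-3304: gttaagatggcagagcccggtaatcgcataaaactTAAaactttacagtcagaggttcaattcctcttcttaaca

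TP changed most clearly among them. It had 76.6, 77.6 and 91.7 CPM in siMock and 63.4, 46.6 and 60.1 CPM in siFUBP1, without overlap, and fell by 0.53 on the log2 scale (SE 0.102, edgeR adjusted p = 9.52e-05), the median change of the mRNAs to within its error. TC fell by 0.30 (edgeR adjusted p = 0.0249), from 207 ± 34.8 to 169 ± 19.7 CPM with overlapping samples. TY fell by 0.67 (edgeR adjusted p = 0.0444), from 22.6 ± 6.68 to 14.1 ± 2.82 CPM, also with overlap. TC lost the call without siMock replicate 1 or 3 or siFUBP1 replicate 2 or 3, with log2 fold changes between -0.16 and -0.32. It also lost the call with total counts in place of TMM (edgeR adjusted p = 0.095) and on log2(FPKM + 1) (limma adjusted p = 0.103). The same held after GC content and length were corrected for (edgeR adjusted p = 0.403). TY lost the call without siMock replicate 1 or 3 or siFUBP1 replicate 1 or 2, with log2 fold changes between -0.50 and -0.71. Neither DESeq2 (adjusted p = 0.0528) nor limma on log2(FPKM + 1) (adjusted p = 0.0533) called TY. After GC content and length were corrected for, edgeR did not call it either (adjusted p = 0.18).

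TN, the most counted tRNA gene, had 286, 281 and 344 CPM in siMock and 314, 205 and 245 CPM in siFUBP1. Its log2 fold change of -0.25 did not pass the test (edgeR adjusted p = 0.149), while without siFUBP1 replicate 1 it was -0.42 (edgeR adjusted p = 0.00164). Without siFUBP1 replicate 2 it was -0.11 and without siMock replicate 3 -0.16, neither with a call. TL1 had 9.97, 6.87 and 11.6 CPM against 10.9, 8.63 and 14.4 CPM, a log2 fold change of 0.26 (edgeR adjusted p = 0.258). Without siFUBP1 replicate 2 it was 0.43 (edgeR adjusted p = 0.0417), but without siFUBP1 replicate 3 it was 0.051 and without siMock replicate 2 it was 0.072. Relative to the mRNA pool TL1 was at 0.85 (edgeR adjusted p = 5.11e-05), beside 0.80 for RNR2, whose last base it adjoins. TN was at 0.33 on that scale (edgeR adjusted p = 0.0303), where the median of all genes tested was 0.59.

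The other 5 tested tRNA genes had few counts. TS2 was called, with a log2 fold change of -1.19 (SE 0.447, edgeR adjusted p = 0.0239) on 22, 11 and 17 counts in siMock and 6, 8 and 9 in siFUBP1. The groups did not overlap, but 4 of the 6 samples, siMock 1 and 3 and siFUBP1 1 and 2, each took the call away when left out, with adjusted p up to 0.130 by edgeR. DESeq2 did not call TS2 (adjusted p = 0.0619), and neither did edgeR with no filter (adjusted p = 0.0511). In edgeR's test with the filter, TS2 was the 1 mitochondrial gene past a log2 fold change of -1 with a call. TG, TR, TH and TL2 had log2 fold changes of -0.71, -0.37, -0.69 and -1.11 and did not pass the test (edgeR adjusted p between 0.131 and 0.256). TG and TH passed it without siMock replicate 2 (log2 fold changes -1.03 and -0.93) or siFUBP1 replicate 3 (-1.17 and -1.16), and TL2 passed it without siFUBP1 replicate 2 (-2.93). Without siFUBP1 replicate 1 TG, TR and TL2 were at -0.43, -0.15 and -0.62, and without siMock replicate 1 TH was at -0.24, none with a call. In all, 4 of the 10 tested tRNA genes were called lower and 0 higher by edgeR, beside 30.1% of all genes tested in each direction. In 2 of the 10 all siFUBP1 samples were under the lowest siMock sample, which held for 31.7% of all genes tested. DESeq2 called 2 lower and 0 higher, beside 28.6% and 28.2% of all genes. The count higher at an unadjusted p below 0.05 was 0 by both.

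Mitochondrial counts are large enough that they could move the scale on which they are measured, so the fit was repeated with library sizes and TMM factors computed without them. The calls were 16 lower and 0 higher again, of 30.2% and 30.0% of all genes tested, and the median of the mRNAs stayed at -0.54. With total counts in place of TMM, the median over all genes moved up by 0.0968 and that of the mRNAs was -0.44, with 15 mitochondrial genes lower and 1, RNR2, higher, beside 25.6% and 35.4% of all genes tested. With total counts that leave out the mitochondrial genes the median was -0.46, with 14 lower and RNR2 again higher, beside 26.6% and 34.1%. A total of 12 of the 13 mRNAs were called lower on each of these scales.

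Copies of mitochondrial genes in the nuclear genome can take reads from their sources where the sequences are alike. The annotation holds 394 such pseudogenes, of which 314 had a count of 0 in every sample, and 3 of them, side by side on chromosome 1, held 99.2% of the counts of all copies. They match MT-ATP6, MT-ND2 and MT-CO1 at 98.5%, 98.4% and 98.7% of the aligned bases. MTATP6P1 (chr1:633696-634376) had 364 ± 35.1 CPM in siMock and 224 ± 30.0 CPM in siFUBP1, a log2 fold change of -0.70 beside -0.78 for MT-ATP6. MTND2P28 (chr1:629640-630683) was at -0.44 beside -0.33 for MT-ND2, and MTCO1P12 (chr1:631074-632616) at -0.76 beside -0.62 for MT-CO1. All 3 copies were called lower by edgeR, beside 30.1% of all genes tested. Their counts per 100 of the source gene were 11.7, 8.02 and 0.912 in siMock and 12.3, 7.44 and 0.827 in siFUBP1. Whether those reads came from the organelle was not tested, and the values of ATP6, ND2 and CO1 are uncertain to that extent.

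Nuclear genes that act on the mitochondrial genome or join its products were described through 12 lists with 276 genes, all of which passed the filter. Together 94 were called higher (34.1%) and 75 lower (27.2%), with a median log2 fold change of 0.01, beside 30.1% in each direction over all genes tested.

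**Figure D5:**
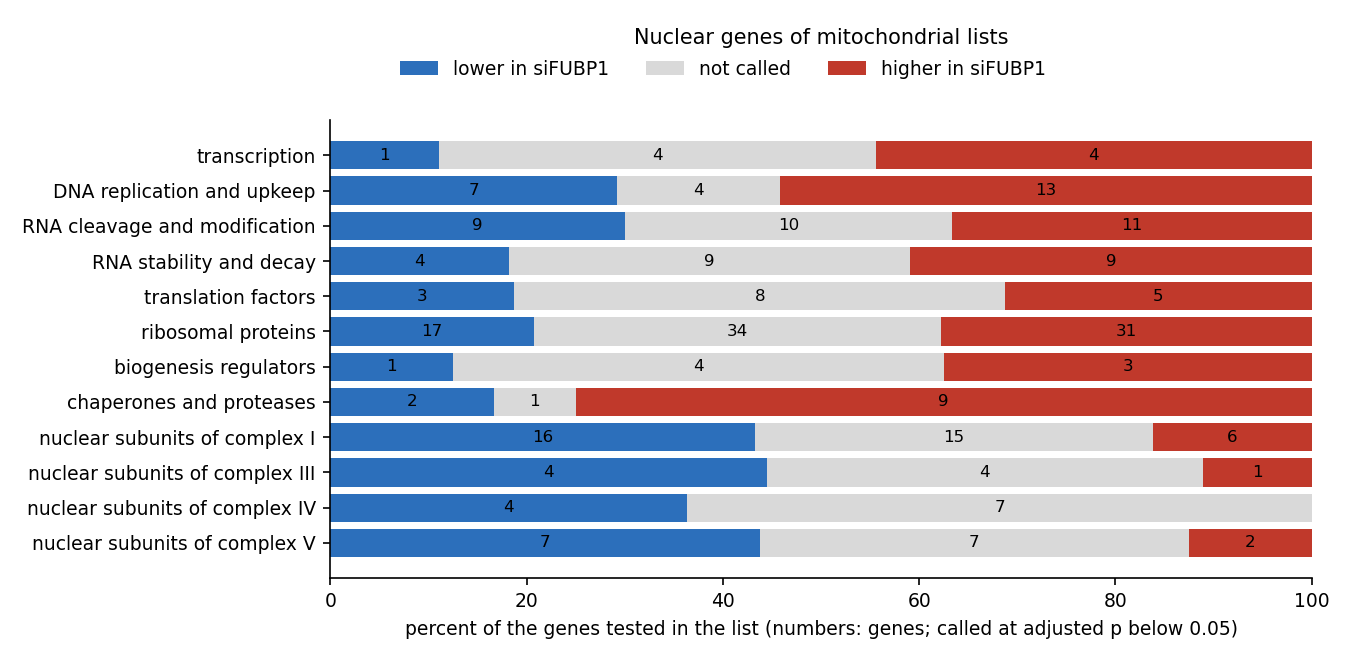
Percent of the tested genes in each of 12 lists of nuclear genes for mitochondrial functions that were called lower, not called or called higher in siFUBP1 (edgeR, adjusted p below 0.05). Numbers in the bars count genes. The lists of respiratory subunits had more genes called lower than higher, 16 against 6 for complex I, and chaperones and proteases the reverse, 2 against 9. Over all genes tested 30.1% were called in each direction.

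Of 9 genes for mitochondrial transcription, 4 rose (44.4%) and 1 fell (11.1%), beside 30.1% called in each direction over all genes tested. TFAM, which packs the DNA and opens promoters, rose by a log2 fold change of 0.48, TFB2M, the other initiation factor, of 0.73, MTERF3 of 0.41 and MTRES1 of 0.73, while MTERF4 fell by 0.41. POLRMT, the RNA polymerase itself, was at -0.18 (edgeR adjusted p = 0.0553), TEFM, its elongation factor, at -0.13 and the termination factor MTERF1 at -0.22, and none of these 3 was called. POLRMT was at -0.25 without siMock replicate 3 (edgeR adjusted p = 0.00873) and at 0.17 with the GC and length correction, so that its direction is not set. TEFM and MTERF1 were each called in at least 1 alternative analysis. Of 24 genes for DNA replication and upkeep, 13 rose (54.2%) and 7 fell (29.2%). The polymerase POLG, the helicase TWNK and the single-strand binding protein SSBP1 rose by 0.20, 0.51 and 0.38. DGUOK and TOP1MT rose by 1.09 and 0.75, and TYMP and FEN1 were at -1.14 and -0.88.

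RNA cleavage and modification had 11 genes higher (36.7%) and 9 lower (30.0%) of 30, near the 30.1% called in each direction over all genes tested. All 3 subunits of the ribonuclease that cuts the 5′ ends of the tRNAs, TRMT10C, HSD17B10 and PRORP, fell, at -0.47, -0.31 and -0.91. ELAC2, which cuts the 3′ ends, fell as well, at -0.80, GTPBP3 and QTRT1, which modify tRNAs, were at -0.60 and -1.06, and TRNT1 and METTL15 rose by 0.82 and 0.90. Of 22 genes for RNA stability and decay, 9 rose (40.9%) and 4 fell (18.2%). LRPPRC and SLIRP, which hold the mRNAs stable, rose by 0.21 and 0.44, MTPAP, the poly(A) polymerase, by 0.65, and PNPT1 and SUPV3L1, which degrade RNA, by 0.47 and 0.49. GRSF1, C1QBP and PTCD2 rose by 0.20, 0.38 and 0.82, and TBRG4 and DHX30 were at -0.87 and -0.61.

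Of 16 translation factors 5 rose (31.2%) and 3 fell (18.8%), beside 30.1% called in each direction over all genes tested. Among them were MTIF2 at 1.02, MTRFR at 0.76, TSFM at -0.92 and OXA1L at -0.56. Of 82 ribosomal proteins 31 rose (37.8%) and 17 fell (20.7%), led by MRPL1 at 1.02, MRPS10 at 0.95, MRPS2 at -1.30 and MRPS28 at -1.16. Regulators of biogenesis had 3 higher (37.5%) and 1 lower (12.5%) of 8, with GABPB1 at 1.24, PPARGC1B at 0.32 and GABPA at -0.49. Of 12 chaperones and proteases 9 rose (75.0%), LONP1 by 1.15 and OMA1 by 0.94 among them. SPG7 and CLPP fell (16.7%), at -0.49 and -0.25. The calls of MTERF3, POLG, LRPPRC, GRSF1, PPARGC1B and CLPP were each lost in at least 1 alternative analysis.

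The nuclear partners of the mitochondrial subunits were called lower more often than higher, beside 30.1% in each direction over all genes tested. Of 37 complex I genes 16 fell (43.2%) and 6 rose, of 9 complex III genes 4 fell (44.4%) and 1 rose, and of 16 complex V genes 7 fell (43.8%) and 2 rose. Of 11 complex IV genes 4 fell (36.4%), a share near that of all genes, and 0 rose by edgeR, with 0 higher also at an unadjusted p below 0.05 and by DESeq2. COX8A had 677, 545 and 509 counts in siMock and 48, 72 and 77 in siFUBP1, a log2 fold change of -3.21, the largest in these lists, and COX4I1 was at -0.40. NDUFB11 and NDUFA2 of complex I were at -1.41 and -0.55, and NDUFA5 and NDUFB5 rose by 0.61 and 0.58. UQCRC1 and UQCRQ of complex III were at -0.37 and -0.42, and UQCRC2 rose by 0.77. ATP5MC1 and ATP5MF of complex V were at -0.41 and -0.42, and ATP5F1B and ATP5PB rose by 0.23 and 0.40, the former not in every alternative analysis. The medians of the complex I, III, IV and V lists, -0.15, 0.048, -0.13 and -0.15, lay above every mitochondrial mRNA.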

How the data were processed

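Samples were grouped by their titles. The authors deposited 1 table with raw read counts per gene. Its values were made, per the labels' processing notes, with HISAT2 2.0.5, StringTie 1.3.3b, featureCounts 1.5.0-p3 and DESeq2 1.16.1. Genome build and strand setting are not given in the sources used here. The FPKM values deposited by the authors rest on library sizes 0.971 to 1.05 times the totals. The columns of the authors' own DESeq2 comparison (mean signal per group, log2 fold change, p-value) were not used. Coordinates of all 37 mitochondrial genes matched GENCODE release 29 (GRCh38), whose transcripts gave the sequences.

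Counts were compared by edgeR 4.0.16 in R 4.3.3 (TMM, expression filter with the group, robust quasi-likelihood F test, Benjamini-Hochberg adjustment over 16116 genes). Called means an adjusted p below 0.05. TMM factors were 0.959 to 1.05, the common dispersion was 0.00684, and every pair of samples differed by more than sampling noise (chi-square per gene at least 5.79). Depth was 16309900 to 17484313 counts per sample, and intervals cover counting error only. Sums, shares and ratios were compared by an exact two-sided permutation test. On simulated counts for 16103 genes, 95% of 200 changed genes were recovered with 6 false calls. The simulation gave all genes the same dispersion and the 200 the same size of change, so these rates do not carry over to the calls here. Alternatives were other scalings and filters, DESeq2 1.42.0, limma 3.58.1 on log2(FPKM + 1) and log2(FPKM + 0.1), a threshold on the fold change, a replicate block, and each sample left out. Total counts without mitochondrial genes and the correction for GC content and length were added after seeing the data.

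The members and lists were chosen with earlier results of these data known. All mitochondrial genes tested were named, and from the lists 18 fixed genes plus, per list, the 2 that rose and the 2 that fell most (called, no overlap between groups, 100 counts or more on average). Of the nuclear copies, the 3 with the most counts were named. MTRES1, PRORP and MTRFR stand in the table under the older symbols C6orf203, KIAA0391 and C12orf65.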

Additional observations from a re-analysis of the deposited data

How the results depend on the processing

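The fall of the mitochondrial mRNAs kept its direction under every other scaling, filter, tool and left-out sample, with a median log2 fold change from -0.60 to -0.45 over the fits that left out 1 sample, and moved to -0.71 with the GC and length correction. The exception is the scale set to the mRNA sum itself, on which the median was 0.041 and 5 mitochondrial genes were called higher and 1 lower. Of all genes tested, 58.9% were called higher on this scale and 8.13% lower. There ND1 was at 0.20, ND2 at 0.26, CO2 at 0.045, ND3 at 0.041, ND4L at 0.30, ND4 at 0.16, ND6 at 0.056, RNR1 at 0.23, TN at 0.33, TC at 0.30, TR at 0.23 and TP at 0.050, and 199 list genes were called higher and 6 lower. With the GC and length correction RNR2 was at -0.021. Mitochondrial genes called higher numbered 1 with total counts, with total counts without mitochondrial genes, with no filter and with the replicate block. When a sample was left out they numbered from 0 to 2, while those called lower ran from 12 to 18. On all 6 samples with TMM, edgeR called 30.1% of all genes tested in each direction. That share was not computed for the fits with no filter, with the block or with a sample left out. A threshold of 1 on the log2 fold change left 1 mitochondrial gene lower, beside 9.13% of all genes tested. It left 5 list genes higher and 6 lower, and the share of all genes higher past it was not computed. Leaving out a sample gave 78 to 92 list genes higher and 65 to 82 lower, a fall of FUBP1 between -2.54 and -2.38, and a difference in the mitochondrial share between -1.68 and -1.18 percentage points. That of the rRNAs alone was 0.0859 points, opposite in sign.

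The replicate numbers mark no shared culture in the labels. The correlations of same-numbered samples were 2.24e-04, 0.0331 and 0.181, so the numbers were not taken to pair the samples. With the replicate number as a block 17 mitochondrial genes were called lower and 1 higher, and 98 list genes higher and 81 lower. Without the block, 30.1% of all genes tested were called in each direction, and that share was not computed with it. In the fit with the block the median of the mRNAs was -0.54, FUBP1 was at -2.45, and the mitochondrial share of counts differed by -1.48 points.

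With 3 samples a group, the calls of ND2, ND4L, RNR2 and 8 of the 10 tested tRNA genes turned with single samples. The part of depth in this was not tested. Other tools, scalings or filters also took away the calls of TC, TY and TS2. Poly-T capture, fragment length and an unstated strand setting bear on all tRNA and rRNA values.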
